A study of Mus musculus with 4 samples.

Results

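Genomic imprinting leaves a gene expressed mainly from the copy inherited from one parent, under the control of DNA methylation that differs between egg and sperm. Many imprinted genes act on the growth of the embryo: Igf2 is the best known promoter of growth, and H19, Igf2r and Grb10 oppose it at different levels. They are abundant in mesenchymal cells of the mouse embryo, where several of them vary together as an imprinted gene network linked to the transcription factor Plagl1. The account below covers 10 imprinted growth regulators, chosen by name with earlier results of these data known. All 10 were found in the deposited table of 32230 gene symbols. They lie in 8 imprinted domains. Igf2, Dlk1, Mest, Peg3, Slc38a4 and Ndn are expressed from the paternal copy, and H19, Igf2r, Meg3 and Grb10 from the maternal copy in most tissues. The parental assignment is background knowledge: values per gene do not separate the 2 copies, and allelic expression was not measured.

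The cells were 4F2A mouse embryonic fibroblasts from mid-gestation male homozygous embryos, in which doxycycline switches on a cassette of the reprogramming factors Oct4, Sox2, Klf4 and Myc. Both groups received 2 µg/mL doxycycline from day 0 and were harvested after 48 h, on day 2. The DMSO group received the vehicle for 1 h on day 0, and the CX-5461 group received CX-5461, an inhibitor of RNA polymerase I, for 1 h on day 0. Each group had 2 libraries of polyadenylated RNA, numbered 2 and 3, so every mean below is given ± SD with n = 2 per group.

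Expression is given as TPM, the share of a library's transcripts after correction for gene length, scaled to a total of 1000000, which allows levels to be compared between genes. Reads recovered from the TPM steps came to between 17503813 and 18665666 per library. The member with the fewest, Mest, had 459 in CX-5461 replicate 2, which gives a counting error of 4.67%, and the others had 670 or more in every library. DMSO replicate 3 stood apart in composition, with 15.3% of its TPM from mitochondrially encoded genes, against 9.20% to 9.96% in the other libraries. Each difference is the mean of log2(TPM + 1) with CX-5461 less that with DMSO, tested with limma over 14621 genes, and a gene passed at a Benjamini-Hochberg adjusted p under 0.05. Of all genes tested, 19.8% passed, 11.6% as higher and 8.21% as lower. With the TPM as deposited, 1694 genes were called higher and 1201 lower, so 58.5% of calls were higher. Under median-of-ratios scaling 1637 were higher and 1678 lower, or 49.4% higher, so it was mainly the number of lower calls that moved.

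Of the 10 imprinted genes, 5 fell (H19, Mest, Peg3, Slc38a4 and Grb10), 2 rose (Dlk1 and Ndn) and 3 did not pass (Igf2, Igf2r and Meg3). Their median log2 difference was -0.36, against 0.07 over all genes tested. As the genes were chosen with earlier results known, this contrast does not speak for imprinted genes in general. The groups did not overlap for any of the 10: 3 lay higher with CX-5461 and 7 lower. That was also the case for 64.5% of all genes tested, 38.2% higher and 26.3% lower. Changes went both ways among genes expressed from the paternal copy: 3 of 6 fell and 2 rose, with a median of -0.36. Of the 4 expressed from the maternal copy, 2 fell and 2 did not pass, also with a median of -0.36. Summed over the 10 genes, TPM came to 5859 and 6061 with DMSO and to 4097 and 3689 with CX-5461, and most of the fall in that sum was in H19.

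**Figure D1:**
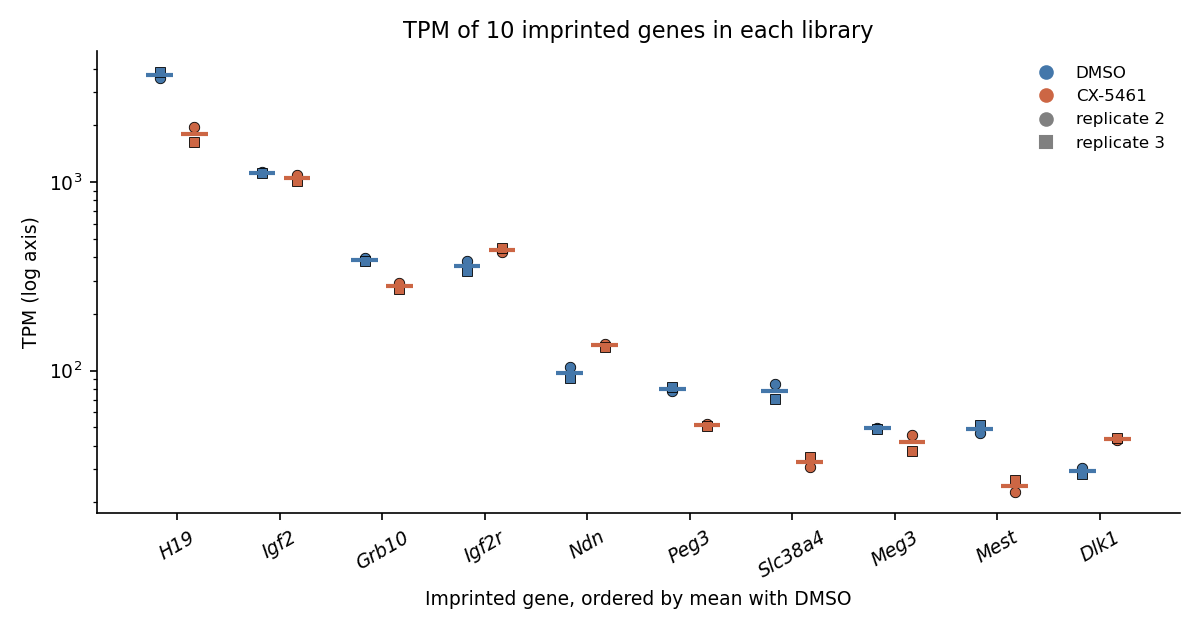
TPM of the 10 imprinted genes (log axis) in each of the 4 libraries, ordered by the DMSO mean. Points are libraries (circle replicate 2, square replicate 3), bars are group means, blue is DMSO and orange CX-5461. H19 lies highest in every library, and Slc38a4 and Mest drop from above Dlk1 with DMSO to below it with CX-5461.

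Some sequences tie these genes to their products and starts. H19 carries the hairpin of miR-675 inside its exons (mm10 chr7:142577064-142577147, minus strand) and Meg3 that of miR-770 (chr12:109563692-109563785, plus strand), so reads over either hairpin cannot be told from the host RNA. The mature sequences, from RefSeq (GRCm38.p6), are shown because they are small RNAs encoded within the 2 noncoding members. A further hairpin in the exons of Meg3, Mir1906-1, is named only. They are written 5′ to 3′ with the seed, bases 2 to 8, in capitals, and no seed is shared between them.
mmu-miR-675-5p: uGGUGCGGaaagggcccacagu
mmu-miR-675-3p: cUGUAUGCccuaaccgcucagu
mmu-miR-770-5p: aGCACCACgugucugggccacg
mmu-miR-770-3p: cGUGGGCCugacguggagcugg

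RefSeq promoter windows (GRCm38.p6, 300 bases around an annotated start, most of them upstream) were found for 9 of the 10 members, 18 windows in all, as several members have alternative starts. The windows were searched on both strands for GGGGCCCC, a core bound by PLAGL1, for TATAAA, for the E2F sites TTTCGCGC and TTTGGCGC, and for the E-box CACGTG. At least 1 match lay in 4 of the 18 windows. The windows of Peg3, Igf2r and Meg3 printed here lie at the most upstream RefSeq start of each gene and have their matches in capitals. The one at Peg3 holds GGGGCCCC, found in 1.08% of 32851 promoter windows, beginning 201 bases before the start. That at Igf2r holds CACGTG at 48 and again at 7 bases before the start (7.15% of windows hold one). At Meg3, overlapping TATAAA matches begin 29 bases (reverse strand) and 25 bases (forward strand) before the start (13.6% of windows hold one). The fourth match, TATAAA at 208 bases before an alternative start of Slc38a4, is not shown. A match describes the letters in a window, not binding.
Peg3, chr7:6730370-6730669, minus strand: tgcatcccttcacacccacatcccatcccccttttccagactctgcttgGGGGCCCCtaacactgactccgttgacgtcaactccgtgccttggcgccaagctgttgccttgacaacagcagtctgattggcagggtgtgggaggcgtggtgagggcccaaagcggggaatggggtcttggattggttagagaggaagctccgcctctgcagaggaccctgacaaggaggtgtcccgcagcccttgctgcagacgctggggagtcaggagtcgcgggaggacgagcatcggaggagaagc
Igf2r, chr17:12769657-12769956, minus strand: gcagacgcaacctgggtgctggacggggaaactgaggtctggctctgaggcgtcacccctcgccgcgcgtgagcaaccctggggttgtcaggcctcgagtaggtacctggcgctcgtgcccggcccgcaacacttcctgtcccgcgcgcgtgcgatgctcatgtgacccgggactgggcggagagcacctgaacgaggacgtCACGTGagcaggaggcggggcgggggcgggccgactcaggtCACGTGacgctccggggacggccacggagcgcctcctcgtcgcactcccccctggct
Meg3, chr12:109540746-109541045, plus strand: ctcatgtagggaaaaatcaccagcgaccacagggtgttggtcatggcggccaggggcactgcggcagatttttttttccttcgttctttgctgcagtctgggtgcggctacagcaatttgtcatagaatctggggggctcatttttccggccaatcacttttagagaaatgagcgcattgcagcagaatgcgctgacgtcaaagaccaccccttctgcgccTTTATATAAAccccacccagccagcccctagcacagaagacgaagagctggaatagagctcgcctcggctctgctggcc

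Igf2 and H19 share enhancers on distal chromosome 7, and the 2 genes behaved unlike each other. Igf2 encodes insulin-like growth factor 2, a secreted ligand that promotes fetal growth (mm10, chromosome 7, 142650766 to 142666816, ENSMUSG00000048583.16). It stood at 1128 and 1120 TPM in the DMSO libraries and at 1096 and 1012 TPM in the CX-5461 libraries. All 4 values lay close together, and the difference of -0.09 (SE 0.09, 95% interval -0.31 to 0.12) did not pass (adjusted p = 0.478). These values leave room for a change within that interval, which is not adjusted for the number of genes and is not a detection limit. A small change in Igf2 could have gone uncalled. Of its 5723 exon bases, 3596 are shared with Gm49394, a gene on the same strand that is absent from the deposited values. A further overlap of 98 bases is with Igf2os on the opposite strand. Reads over shared bases could belong to either gene. H19, a long noncoding RNA that restrains growth in the mouse (chromosome 7, 142575529 to 142578143, ENSMUSG00000000031.16), was the most abundant member in every library. It was at 3561 and 3850 TPM with DMSO and at 1952 and 1633 TPM with CX-5461. Both treated libraries lay well below both controls, and H19 fell from 3705 ± 205 to 1792 ± 226 TPM (log2 difference -1.05, SE 0.12, adjusted p = 0.00399). The call ended without CX-5461 replicate 3 (-0.92, adjusted p = 0.0766). Mir675, the hairpin locus within H19, moved the same way, from 3782 and 5449 TPM to 2145 and 1719 TPM (-1.24, adjusted p = 0.0167). Its call ended without either of the CX-5461 libraries (highest adjusted p = 0.125). Mature miR-675 was not measured by these libraries, and the locus only repeats reads of its host.

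Because scaling affects the 2 genes of a library alike, the ratio of H19 to Igf2 was also taken within each library. It was 3.16 and 3.44 with DMSO and 1.78 and 1.61 with CX-5461. The mean H19 to Igf2 log2 ratio, of TPM + 1, was 1.72 ± 0.09 with DMSO and 0.76 ± 0.10 with CX-5461 (SD, n = 2), a difference of -0.96. The groups lay apart, and an exact two-sided permutation test gave p = 0.333, the smallest value that 2 against 2 libraries can give. With 1 library left out the difference ran from -1.03 to -0.89.

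Dlk1 and Meg3 form the other domain with a member expressed from each parental copy, on distal chromosome 12. Dlk1, a transmembrane protein with EGF repeats related to the Notch ligands and an inhibitor of adipocyte differentiation (chromosome 12, 109452823 to 109463336, ENSMUSG00000040856.17), was the lowest of the 10 genes with DMSO. It stood at 30.5 and 28.3 TPM with DMSO and at 42.6 and 43.7 TPM with CX-5461. Dlk1 rose by 0.54 on the log2 scale (SE 0.09, adjusted p = 0.0142), from 29.4 ± 1.56 to 43.2 ± 0.794 TPM, and the treated libraries agreed closely. Without CX-5461 replicate 2 or 3 its difference was 0.56 or 0.52, close to that with all libraries, though the call ended. Meg3, a long noncoding RNA also called Gtl2 (chromosome 12, 109541001 to 109571726, ENSMUSG00000021268.17), was at 49.7 and 48.9 TPM with DMSO and at 45.7 and 37.5 TPM with CX-5461. The treated libraries differed from each other by more than the first of them differed from the controls. Its difference of -0.25 (SE 0.12, 95% interval -0.54 to 0.04) did not pass (adjusted p = 0.196). Voom on recovered reads called it lower (-0.31, adjusted p = 0.0159).

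The 2 hairpin loci in the exons of Meg3 had different values. Mir1906-1 stood at 224 and 213 TPM with DMSO and at 197 and 161 TPM with CX-5461 (-0.29, adjusted p = 0.133). Mir770 stood at 9.83 and 3.68 TPM with DMSO and at 21.8 and 13.7 TPM with CX-5461 (1.36, adjusted p = 0.104), which came from only 4.75, 2, 10.5 and 6.5 recovered reads. Neither passed, and so few reads at Mir770 give its direction little weight. The ratio of Meg3 to Dlk1 was 1.63 and 1.73 with DMSO and 1.07 and 0.857 with CX-5461. Meg3 RNA thus exceeded Dlk1 mRNA in both controls and in 1 of the 2 treated libraries. The mean Meg3 to Dlk1 log2 ratio was 0.73 ± 0.06 and -0.06 ± 0.22, a difference of -0.79 that ran from -0.94 to -0.63 with 1 library left out (exact two-sided permutation test, p = 0.333, again the smallest possible). In both domains the maternal-copy RNA was lower relative to its paternal-copy neighbour with CX-5461 than with DMSO. In one the H19 level was lower at a like level of Igf2, and in the other it was the paternal-copy Dlk1 that passed the test.

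**Figure D2:**
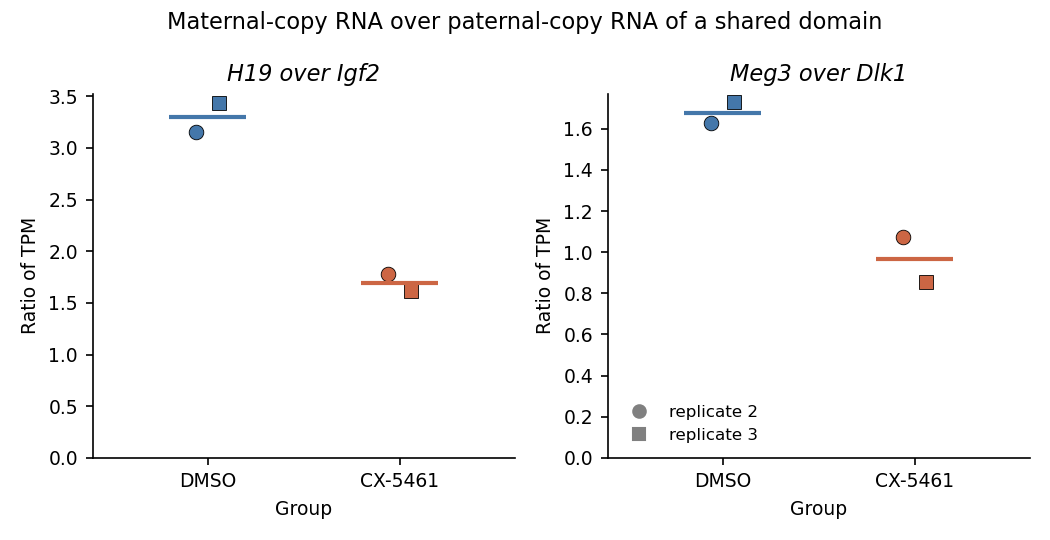
Ratio of TPM of the maternal-copy RNA to the paternal-copy RNA within each library, for H19 over Igf2 (left) and Meg3 over Dlk1 (right). Points are libraries and bars are means of 2. H19 over Igf2 drops from 3.16 and 3.44 to 1.78 and 1.61, and Meg3 over Dlk1 from 1.63 and 1.73 to 1.07 and 0.857.

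The other members that act on the IGF axis moved in different directions. Igf2r is the cation-independent mannose 6-phosphate receptor, which carries IGF2 to lysosomes for degradation (chromosome 17, 12682406 to 12769664, ENSMUSG00000023830.14). It stood at 383 and 338 TPM with DMSO and at 427 and 445 TPM with CX-5461. Both treated libraries were above both controls, but the difference of 0.28 (SE 0.09, 95% interval 0.05 to 0.51) did not pass after adjustment (adjusted p = 0.0908). It passed without DMSO replicate 2 (0.37, adjusted p = 0.03025) and with voom on recovered reads (0.22, adjusted p = 0.0144). Airn, the antisense noncoding RNA that silences the paternal Igf2r copy, was at 3.66 ± 0.382 and 4.48 ± 0.364 TPM (adjusted p = 0.373). Its exons do not overlap those of Igf2r. Grb10, an adaptor protein that binds the insulin and IGF1 receptors and dampens their signal (chromosome 11, 11930508 to 12038683, ENSMUSG00000020176.17), was at 395 and 380 TPM with DMSO and at 290 and 271 TPM with CX-5461. Grb10 fell by 0.46 (SE 0.08, adjusted p = 0.0155), a loss of 27.6% of its mean, with no overlap between groups. The call ended without CX-5461 replicate 2 (adjusted p = 0.120) or 3 (0.193), and in limma without its trend and robust options (0.0523). With DMSO, Grb10 (387 ± 10.6 TPM) and Igf2r (360 ± 31.6 TPM) lay within their spread of each other, with Grb10 the higher in both libraries. With CX-5461, Igf2r (436 ± 12.7 TPM) stood above Grb10 (281 ± 12.9 TPM) in both libraries.

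Slc38a4, Mest and Peg3, all expressed from the paternal copy, fell together. Slc38a4 encodes SNAT4, a sodium-coupled amino acid transporter prominent in placenta and liver (chromosome 15, 96994820 to 97055956, ENSMUSG00000022464.14). It stood at 85.2 and 70.4 TPM with DMSO and at 30.6 and 34.9 TPM with CX-5461. Even the lower control was above 2 times the higher treated value, and Slc38a4 had the largest difference of the 10 genes (-1.22, SE 0.13, adjusted p = 0.00317). It was also the member that passed whichever library was left out (highest adjusted p = 0.0420) and under every other setting tried. Mest, also called Peg1, encodes a protein of the alpha/beta hydrolase fold, and mouse embryos lacking the paternal copy grow poorly (chromosome 6, 30723547 to 30748465, ENSMUSG00000051855.15). It was at 46.4 and 51.6 TPM with DMSO and at 22.7 and 26.2 TPM with CX-5461. Mest fell by 0.98 (SE 0.11, adjusted p = 0.00437), from 49.0 ± 3.67 to 24.4 ± 2.48 TPM, which made it the lowest member in both treated libraries. Without CX-5461 replicate 2 its adjusted p was 0.0508. Its exons share 912 bases with those of Copg2 on the opposite strand, so reads there could belong to either gene, and Copg2 itself stood at 41.3 ± 6.71 and 47.4 ± 2.49 TPM (adjusted p = 0.322).

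Peg3 encodes a large zinc-finger protein that affects growth and maternal behaviour in mice (chromosome 7, 6703892 to 6730431, ENSMUSG00000002265.16). It was at 77.8 and 81.3 TPM with DMSO and at 51.8 and 50.6 TPM with CX-5461, with little spread within either group. Peg3 fell by 0.63 (SE 0.08, adjusted p = 0.00638), and the call ended without CX-5461 replicate 2 (adjusted p = 0.0767) or 3 (0.0972). Ndn went the other way. It encodes necdin, a protein of the MAGE family that binds E2F1 and p53 and restrains proliferation, and it lies in the domain lost in Prader-Willi syndrome (chromosome 7, 62346569 to 62350262, ENSMUSG00000033585.5). It was at 104 and 91.4 TPM with DMSO and at 138 and 134 TPM with CX-5461. Ndn rose by 0.48 (SE 0.10, adjusted p = 0.0229), the treated libraries being closer to each other than the controls. This was the least stable of the 7 calls: it ended without either of the CX-5461 libraries (highest adjusted p = 0.171), without a filter on low values (0.0509) and in limma without its trend and robust options (0.0622).

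**Figure D3:**
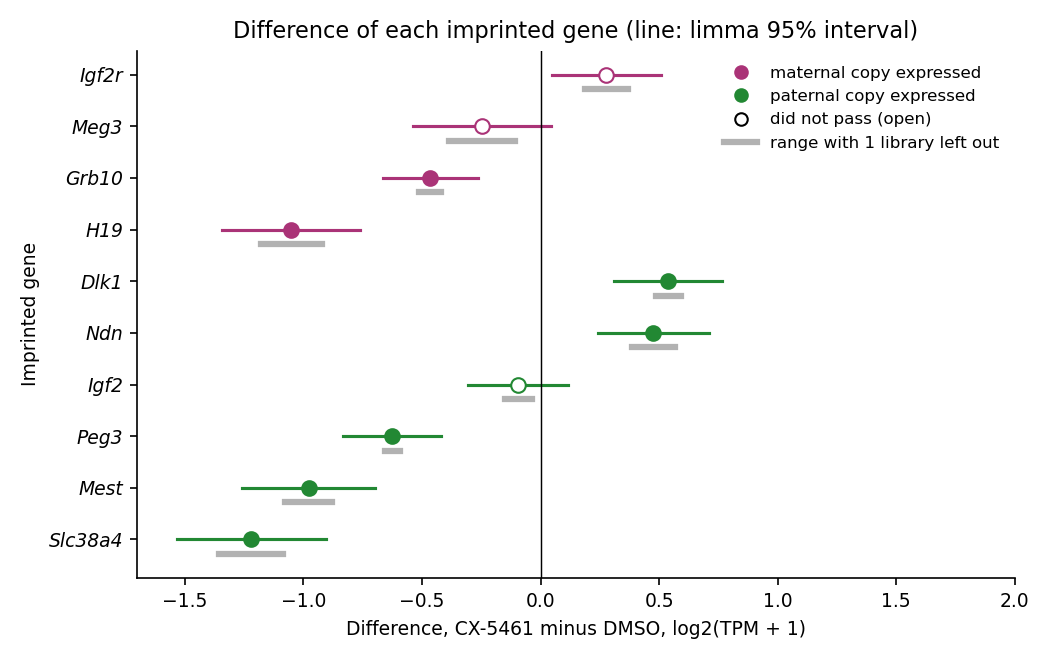
Difference of each imprinted gene in log2(TPM + 1), CX-5461 less DMSO, for members expressed from the maternal copy (purple, top) and the paternal copy (green). Filled points passed and open points did not, coloured lines are limma's 95% intervals, and grey bars give the range when 1 library at a time is left out. Slc38a4 lies lowest at -1.22 and Dlk1 highest at 0.54.

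The order of the 10 levels changed between the groups. With DMSO it ran H19, Igf2, Grb10, Igf2r, Ndn, Peg3, Slc38a4, Meg3, Mest and Dlk1, and 3 neighbouring pairs lay within their spread: Grb10 and Igf2r, Peg3 (79.5 ± 2.51 TPM) and Slc38a4 (77.8 ± 10.4 TPM), and Meg3 (49.3 ± 0.511 TPM) and Mest (49.0 ± 3.67 TPM). With CX-5461, H19 and Igf2 remained on top, Igf2r came before Grb10, and Ndn and Peg3 followed. Dlk1 (43.2 ± 0.794 TPM) and Meg3 (41.6 ± 5.83 TPM) then lay within their spread of each other, above Slc38a4 (32.8 ± 3.03 TPM) and Mest (24.4 ± 2.48 TPM). Among all genes in the table H19 ranked 31st by mean TPM and Igf2 91st, so both were among the abundant RNAs of these cells.

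Of 44 listed neighbours in or near the members' imprinted domains, 43 were in the table and 25 reached the filter. Of these, 5 fell and 2 rose, with a median of 0.06. The share that fell was 20%, against 8.21% of all genes tested, and the share that rose 8.0%, against 11.6%; no test of these shares was made. On distal chromosome 7, Cdkn1c, which encodes the cell cycle inhibitor p57 and is expressed from the maternal copy, fell from 44.7 ± 1.21 to 26.4 ± 1.37 TPM (-0.74, adjusted p = 0.00544). Dhcr7, the last enzyme of cholesterol synthesis, fell from 31.0 ± 1.54 to 14.7 ± 0.973 TPM (adjusted p = 0.00307), whereas Osbpl5, a lipid transfer protein, rose from 103 ± 8.48 to 169 ± 10.5 TPM (adjusted p = 0.00730). Calls on distal chromosome 7 thus went both ways, though these genes lie near Igf2 and H19 rather than in their domain. Around Ndn on central chromosome 7, Atp10a, a phospholipid flippase, fell from 15.2 ± 0.415 to 4.97 ± 0.932 TPM (-1.45, adjusted p = 0.00358). Peg12, a FRAT family protein (-0.64), the actin nucleator Cobl beside Grb10 (-1.04) and the decoy receptor Tnfrsf23 (0.48), named after their values were seen, made up the other calls. Snrpn, at 27.5 ± 6.91 TPM with DMSO and 33.4 ± 0.950 TPM with CX-5461, and Snurf, at 55.2 ± 12.4 and 56.8 ± 4.32 TPM, come from a shared transcript, and neither passed, though Snrpn was called higher without DMSO replicate 2 (0.54). Without either CX-5461 library the calls of Cdkn1c, Osbpl5, Tnfrsf23, Peg12 and Cobl ended, as did that of Peg12 without DMSO replicate 2 and that of Cobl without DMSO replicate 3, while 6 neighbours were called higher without DMSO replicate 2.

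Of 27 tested imprinted genes of other domains, 4 rose and 1 fell, with a median of 0.14. That is 18.5% called, near the 19.8% of all genes tested. Htr2a, a serotonin receptor, rose from 17.5 ± 1.18 to 32.2 ± 1.77 TPM (adjusted p = 0.00535) and Blcap, an apoptosis-inducing factor, from 61.3 ± 9.89 to 112 ± 2.29 TPM (adjusted p = 0.00840). Zrsr1, a retrogene related to a splicing factor, rose from 13.8 ± 0.666 to 21.2 ± 1.19 TPM (adjusted p = 0.0185), and Inpp5f, a phosphoinositide phosphatase named after its value was seen, by 0.60. Dcn, the proteoglycan decorin, fell from 234 ± 17.3 to 156 ± 3.98 TPM (adjusted p = 0.0101). Plagl1, the zinc-finger factor of the imprinted gene network, was at 69.2 and 92.3 TPM with DMSO and at 55.8 and 55.7 TPM with CX-5461. Both treated libraries were below both controls, but the controls differed widely and Plagl1 did not pass (-0.51, adjusted p = 0.0610). It was called lower with a filter of 5 TPM (adjusted p = 0.046), with voom (0.0145) and without DMSO replicate 2 (0.0141), and over all settings tried its adjusted p reached 0.264, without CX-5461 replicate 3. Gnas, the stimulatory G protein gene, was at 225 ± 16.3 and 253 ± 3.19 TPM (adjusted p = 0.221). All 5 calls ended without either of the CX-5461 libraries, those of Zrsr1 and Inpp5f also without DMSO replicate 3, and that of Zrsr1 without DMSO replicate 2.

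**Figure D4:**
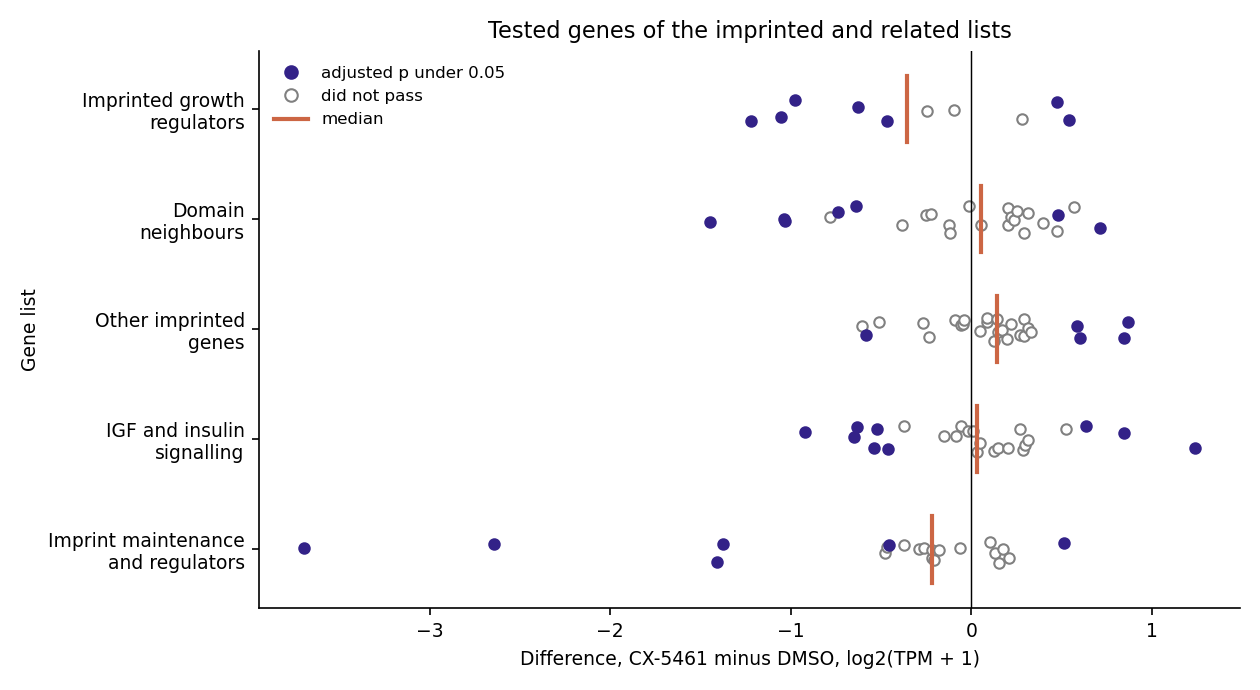
Tested genes of 5 lists by their difference in log2(TPM + 1), with values right of 0 higher with CX-5461. Filled points passed at an adjusted p under 0.05, open points did not, and the orange line is the list's median, which is -0.36 for the imprinted growth regulators, 0.06 for their domain neighbours and 0.14 for other imprinted genes.

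Of 25 other genes of IGF and insulin signalling tested, 6 fell and 3 rose, with a median of 0.03. That is 36.0% called, against 19.8% of all genes tested, and these shares were not tested. The receptors Igf1r (34.9 ± 2.08 and 33.5 ± 0.916 TPM, adjusted p = 0.697) and Insr (16.2 ± 0.0870 and 15.2 ± 0.646 TPM, adjusted p = 0.605) did not pass. Among the secreted binding proteins that hold IGFs outside cells, Igfbp2 rose from 65.6 ± 7.45 to 156 ± 2.69 TPM (adjusted p = 0.00174). Igfbp5 fell from 95.3 ± 5.23 to 49.8 ± 1.08 TPM (adjusted p = 0.00239), and Igfbp3 (-0.54) and Igfbp4 (-0.63) fell as well. The abundant Igfbp6 (569 TPM with DMSO and 507 TPM with CX-5461, adjusted p = 0.456) and Igfbp7 (676 and 821 TPM, adjusted p = 0.118) did not pass, though Igfbp6 was called lower without DMSO replicate 3, and Igfbp7 higher without DMSO replicate 2 and with voom. Pappa, the secreted protease that cleaves IGFBP4 and IGFBP5, rose from 28.7 ± 0.194 to 52.3 ± 1.06 TPM (adjusted p = 0.00296). All 3 tested genes of the RNA-binding proteins that attach to Igf2 mRNA fell: Igf2bp2 from 65.6 ± 3.54 to 41.4 ± 0.751 TPM (adjusted p = 0.00707), Igf2bp1 by 0.46 and Igf2bp3 by 0.52. Foxo3, a transcription factor restrained by insulin signalling, rose by 0.64. Igfbp3, Igfbp4, Igfbp6, Igfbp7, Igf2bp1, Igf2bp3 and Foxo3 fall outside the rule for named genes and were added after their values were seen. The calls of Igfbp2, Igfbp5 and Pappa held whichever library was left out, those of the other 6 ended without either of the CX-5461 libraries, and that of Igf2bp1 also without either DMSO library.

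The sorting machinery that Igf2r works with showed 1 call among 8 genes tested, or 12.5%, against 19.8% of all genes tested. Gnptab, which makes the mannose 6-phosphate tag, fell from 57.8 ± 4.33 to 43.0 ± 3.06 TPM (-0.42, adjusted p = 0.0406). This call held only without DMSO replicate 2 among the 4 libraries left out in turn, with an adjusted p of up to 0.239. M6pr, the smaller mannose 6-phosphate receptor, was at 98.6 ± 4.77 and 105 ± 4.86 TPM (adjusted p = 0.534).

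Genes that maintain or read imprints were lower in part. Of 21 tested, 5 fell and 1 rose, with a median of -0.22. That is 28.6% called, against 19.8% of all genes tested, and these shares were not tested. Under median-of-ratios scaling 10 were called lower, while lower calls over all genes went from 1201 to 1678. Dnmt1, the methyltransferase that copies DNA methylation after replication, fell from 73.8 ± 2.32 to 27.9 ± 0.282 TPM (-1.37, adjusted p = 0.000729). Its partner Uhrf1 fell by 3.70 (adjusted p = 0.000262), and the chromatin remodeller Hells, which supports that methylation, fell from 24.1 ± 0.656 to 3.05 ± 0.811 TPM (adjusted p = 0.000833). Ezh2, the Polycomb methyltransferase, fell from 18.6 ± 3.04 to 6.34 ± 0.0909 TPM (adjusted p = 0.00336), and these 4 calls held whichever library was left out. Trim28 fell by 0.46 and the Polycomb gene Eed rose by 0.51, both named after their values were seen and both lost without either of the CX-5461 libraries, Eed also without DMSO replicate 3. Zfp57, which binds methylated imprinting control regions, was at 18.29 ± 2.03 and 13.01 ± 2.31 TPM (adjusted p = 0.0921). Ctcf, which insulates Igf2 from its enhancers on the maternal chromosome, was at 56.1 ± 0.841 and 46.6 ± 0.500 TPM (-0.26, adjusted p = 0.0781). Zfp57 and Ctcf were both called lower under each of the 3 scalings (highest adjusted p = 0.0441 and 0.0337) and with voom. DNA methylation of the imprinted regions was not measured.

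Imprinted genes are expressed unevenly between cell types, so markers of the cells such cultures could hold were read beside them. In bulk RNA, fewer cells of a type and less RNA per cell cannot be told apart. Of 10 fibroblast markers all were tested and 4 fell (Col3a1, Pdgfra, Thy1 and Prrx1), whereas 8.21% of all genes tested fell. The difference between these shares was not tested. Voom called 7 of the 10 lower and 1 higher, and the same counts had an unadjusted limma p under 0.05. Twist1 alone had a higher mean with CX-5461, and it did not pass (0.28, limma adjusted p = 0.0602). The summed level of all 10 was 12182 and 9908 TPM with DMSO and 8947 and 8672 TPM with CX-5461. Col1a1 and Vim, the largest parts of that sum, did not pass (adjusted p = 0.416 and 0.091). Col1a1 overlapped between groups, at 4321 and 3114 TPM with DMSO and 3202 and 3150 TPM with CX-5461. Of 8 markers of skeletal muscle progenitors, which express H19, Igf2 and Dlk1 strongly, Myod1 and Myog were at 0 in every library and Pax7 and Myf5 were at or below 0.249 TPM. The sum of that list was 23.6 to 27.9 TPM with DMSO and 34.4 to 36.0 TPM with CX-5461. It was mostly Des, a muscle intermediate filament, which rose from 22.2 ± 2.70 to 33.3 ± 0.161 TPM (0.57). Chrna1, the other of the 2 tested, went the opposite way and did not pass (-0.80, limma adjusted p = 0.0797). It stood at 2.02 and 2.01 TPM with DMSO and at 0.955 and 0.543 TPM with CX-5461. The adipocyte list summed to 5.02 and 6.64 TPM with DMSO and to 9.41 and 5.84 TPM with CX-5461, and the germ cell list to 2.36 to 3.68 TPM over the 4 libraries with Dppa3 at 0. The endothelial list summed to 50.6 and 51.0 TPM with DMSO and to 57.2 and 58.3 TPM with CX-5461, with Tek called lower, Kdr called higher and Pecam1 and Cdh5 at or below 0.324 TPM. Macrophage markers summed to 62.8 and 76.3 TPM and to 76.8 and 96.1 TPM (Adgre1 called higher), and chondrocyte markers to 21.4 and 21.6 TPM and to 23.1 and 24.5 TPM. Keratinocyte markers summed to 30.7 and 32.4 TPM and to 17.9 and 28.7 TPM. That sum was mostly Krt14, at 26.4 and 26.9 TPM with DMSO and at 10.8 and 18.5 TPM with CX-5461. Krt5 and Krt10 had higher means with CX-5461, and none of the 3 keratinocyte markers tested passed. Neural crest and glial markers, with Sox10 at 30.2 to 39.7 TPM, summed to 94.6 and 90.9 TPM and to 94.9 and 118 TPM, and none of the 5 tested passed (limma, and none at an unadjusted p under 0.05 or by voom). The part of these cell types in the differences of the imprinted genes was not tested.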

How the data were processed

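RNA-seq of 4 libraries, 2 with DMSO and 2 with CX-5461, was analysed. The authors deposited TPM values per gene symbol. Each column summed to 1000000, and every value is relative to its library's total. Per the labels' protocols, paired-end reads of poly-T selected mRNA went through the BMKCloud pipeline. The submitters' processing notes name mm10 as the build. Not given in the sources used here: aligner, counter, annotation and strand setting. Groups and replicate numbers came from the sample titles, and 0 columns were left unused. Whether replicates came from separate cultures is not stated in the labels. P-values reflect the spread of these samples, possibly technical.

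Genes averaging 1 TPM or more over the libraries entered limma 3.58.1 (R 4.3.3) as log2(TPM + 1), using eBayes with trend and robust and no covariate, which left 2 residual degrees of freedom per gene. Benjamini-Hochberg adjustment covered all 14621 genes. On simulated data with known changes the procedure recovered nearly all genes changed by 2-fold or more. It made clearly more false calls than its threshold promises, so calls near the threshold are the least secure. The simulated spread was taken from the CX-5461 pair, the less variable one, so the simulation does not stand for the spread of the DMSO pair. Members and lists were chosen with earlier results of these data known. Named were all 10 members, up to 4 passing genes per list with the smallest adjusted p, where none passed the 2 highest by TPM, and the nearest genes in pattern to the 3 most abundant members. Fold changes of low genes are understated by the pseudocount.

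Recovered reads are TPM times the exon length in GENCODE M21 (mm10) divided by the commonest step of each library. Of the values, 87.5% to 87.9% per library fell on multiples of 0.25 of that step, within 0.005 of a step, so what 1 recovered read stands for (a read or a pair) is not settled. Replicates of a group differed by more than counting noise (chi-square per degree of freedom 11.7 and 4.70). Other settings were pseudocounts of 0.1 and 5, no filter, a filter of 5 TPM, 3 scalings, limma without trend and robust, a replicate block, each library left out and, added after the data were seen, voom on recovered reads. Where 1 library was left out, the single one remaining in that group was taken to vary as the other group does. Python 3.11.15, pandas 2.3.3 and matplotlib 3.10.9 were used for tables and figures. Nespas was matched as Gnasas1, and Rian was not analysed here.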

Additional observations from a re-analysis of the deposited data

How the results depend on the processing

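All 10 imprinted genes kept their direction under every setting tried, and 7 passed under each scaling, both pseudocounts, the filter of 5 TPM and the replicate block. Imprinted genes called higher numbered 1 instead of 2 without a filter and in limma without trend and robust. With 1 library left out, 0 to 3 were called higher and 2 to 5 lower, the lowest counts coming without either of the CX-5461 libraries. In those limma fits, with 0 called higher, 2 had an unadjusted p under 0.05 in that direction, and voom on all 4 libraries called 3 higher and 6 lower. Over all genes, 1694 higher and 1201 lower calls became 1128 higher without trend and robust, 1051 higher without a filter and 2180 lower with voom on recovered reads. With 1 library left out they ran from 237 to 2047 higher and from 364 to 891 lower. The share of higher calls, 58.5%, was 49.4% with median-of-ratios scaling, 49.9% with quantile normalization, 49.0% when mitochondrial and the 20 highest genes were left out of the total, and 51.1% with voom. Same-numbered libraries did not deviate together (r = 0.03 across genes), and the replicate block gave 1589 higher and 1100 lower calls. The replicate block also called Plagl1 lower (adjusted p = 0.0408). Over all settings the median of members expressed from the paternal copy ran from -0.43 to -0.32 and that from the maternal copy from -0.45 to -0.26, both ends of the latter without a CX-5461 library. The Meg3 to Dlk1 log2 ratio difference ran from -0.94 to -0.63 and the H19 to Igf2 log2 ratio difference from -1.03 to -0.89. The cause of calls lost was not tested.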

Other observations

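Of 6 tested amino acid transporters of the SLC38 family besides Slc38a4, Slc38a1 fell from 28.7 ± 1.97 to 18.8 ± 0.879 TPM (limma adjusted p = 0.0162) and Slc38a6 rose from 5.49 ± 0.412 to 9.54 ± 0.598 TPM (adjusted p = 0.0237). Slc38a2, the neighbour of Slc38a4 on chromosome 15 and a widely expressed system A transporter, was not called, with 116 ± 3.77 TPM under DMSO and 99.0 ± 1.63 TPM under CX-5461 (-0.22, adjusted p = 0.111). Slc38a2 and Slc38a7, the latter named after its values were seen, were called lower with Slc38a1 under each of the 3 scalings (highest adjusted p = 0.0374 for Slc38a2 and 0.0351 for Slc38a7) and with voom. The calls of Slc38a1 and Slc38a6 ended without either of the CX-5461 libraries, and that of Slc38a6 also without DMSO replicate 3. They made up 33.3% of the list, against 19.8% called of all genes tested.

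Of 8 tested Notch receptors, ligands and targets, the family to which Dlk1 is related, 2 rose. That is 25.0% called, against 19.8% of all genes tested. Notch3, a receptor, rose from 22.9 ± 3.004 to 98.1 ± 8.96 TPM (adjusted p = 0.000690), and Jag2, a ligand, from 2.03 ± 0.512 to 11.8 ± 3.41 TPM (adjusted p = 0.00450), and both calls held whichever library was left out. The target Hes1 was at 104 ± 3.70 and 98.4 ± 5.11 TPM (adjusted p = 0.534), and Dlk2, the closest relative of Dlk1, at 4.16 ± 0.468 and 7.09 ± 1.82 TPM (adjusted p = 0.0844).

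By Euclidean distance of centred log2(TPM + 1) over the 4 libraries, the genes nearest to H19 among 9437 candidates were Hmgn5 (distance 0.07) and Igsf10 (0.08), both of which fell, by 1.12 and 1.01. Nearest to Igf2 were Sipa1l2 (0.002) and Eef1d (0.008), and nearest to Igf2r were Gpc1 (0.014) and Rbm34 (0.018), none of which passed. With 4 libraries such likeness describes these values only.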
